A study of Homo sapiens with 8 samples.

Results

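The 31 genes described here are established transcriptional targets of p53, taken as a list of gene symbols and all found among the 17561 genes of the expression table. HepG2, a human hepatic cell line, was transfected with pGRHL2 or with the vector pcDNA3. Its RNA was profiled by paired-end RNA-seq after 48 h, with 4 libraries per plasmid. pGRHL2 drove flag-tagged GRHL2, an epithelial transcription factor, from an EEF1A1 promoter and also expressed eGFP, so the plasmids differed by more than the GRHL2 insert. Both groups were grown on gelatin in the same William's E medium with serum, insulin, dexamethasone and antibiotics, and the study describes 4 independent biological replicates. The share of cells that took up plasmid is not given in the sources used here, and in bulk RNA fewer cells expressing a gene cannot be told apart from less RNA per cell.

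p53 is held at a low level in unstressed cells because MDM2, itself a p53 target, marks it for degradation. DNA damage, oncogenic signals or ribosomal stress relieve this control, and p53 then binds paired decamers near its targets and activates genes for cell cycle arrest, DNA repair, cell death and metabolism, along with genes that switch it off again. In liver cells, p21 (CDKN1A) and GDF15 are among its best known targets, although several members also respond to stress or growth factor pathways that do not need p53.

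All values are log2 expression as deposited, on which 1 unit is a doubling, and a log2 fold change (log2 FC) is the mean of 4 pGRHL2 minus pcDNA3 differences, 1 for each replicate number. In every one of the 17561 genes the same-numbered libraries shared 1 mean (tolerance 1e-09), so the values of each pair mirror each other and only the 4 differences carry information. They were therefore tested with limma, blocked on replicate number, and a gene was called at an adjusted p under 0.05 over all genes. GRHL2 lay between 16.22 and 16.87 in the pGRHL2 libraries and between 6.61 and 7.25 in the pcDNA3 libraries, and it rose by 9.48 ± 0.57 (SD of 4 pairs, adjusted p = 4.84e-08). Library medians lay between 6.71 and 6.73. All 9 liver markers were in the table (ALB at a mean of 16.88 and AFP at 17.11) and 0 were called, with 1 at an unadjusted p under 0.05, while of 8 markers of blood cells, fibroblasts and endothelium 3 were in it, COL1A1, PECAM1 and VWF, and 0 were called (COL1A1 had an unadjusted p under 0.05).

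No p53 target was called after GRHL2 expression, and the estimated change of every member stayed within 1.3-fold in either direction. CDKN1A, the gene of the cell cycle inhibitor p21, had the largest difference, 1.24-fold higher with pGRHL2 and higher in 4 of 4 pairs, with an adjusted p of 0.0511. RRM2B, SUSD6, PHLDA3 and TNFRSF10C were also higher in all pairs, as were 13.4% of all genes. PPM1D, BBC3 and TP53INP1 were lower in all pairs, as were 10.5% of all genes. Each of these members failed to pass the test. The members divided evenly by sign, 16 with a log2 FC above 0 and 15 below, with a median of 0.0031 beside 0.0017 over all genes. The median absolute log2 FC of the members was 0.078, beside 0.040 over all genes and 0.060 over the 10858 genes with a mean value of at least 5.

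limma called 0 of 31 members, where 385 of 17561 genes (2.19%) were called, 297 higher (1.69%) and 88 lower (0.501%). At an unadjusted p under 0.05 there were 7 of 31 members, beside 16% of all genes. Of these, 4 were higher, beside 9.17% of all genes, and 3 were lower, beside 6.78%. The groups did not overlap in 8 of 31 members, beside 24% of all genes. These were 5 members higher, beside 13.4% of genes, and 3 lower, beside 10.5%. Because the libraries mirror each other, a gene without overlap is the same as a gene with 1 sign in all pairs. Of the members, 30 had a mean value of at least 5. Among all genes at that level 1.42% were called, 15% had an unadjusted p under 0.05 and 22.5% did not overlap, while of those 30 members 7 had an unadjusted p under 0.05 and 7 did not overlap. The members' shares lay near those of all genes.

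The intervals bound the mean change of the deposited values, 1 gene at a time. They do not bound the change within transfected cells, whose share is not given. TNFRSF10C, at a mean of 2.13, had the narrowest interval (-0.025 to 0.058), on a scale where weak genes are compressed. For 29 of 31 members the 95% interval of the log2 FC lay within 1.3-fold either way, and for all 31 it lay within 1.5-fold. The bounds ran from -0.42 (PLK2) to 0.47 (CDKN1A), with a median distance of 0.15 from the log2 FC to a bound, and 24 intervals included 0. In 22 members the absolute log2 FC was smaller than the SD of the 4 pair differences.

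**Figure D1:**
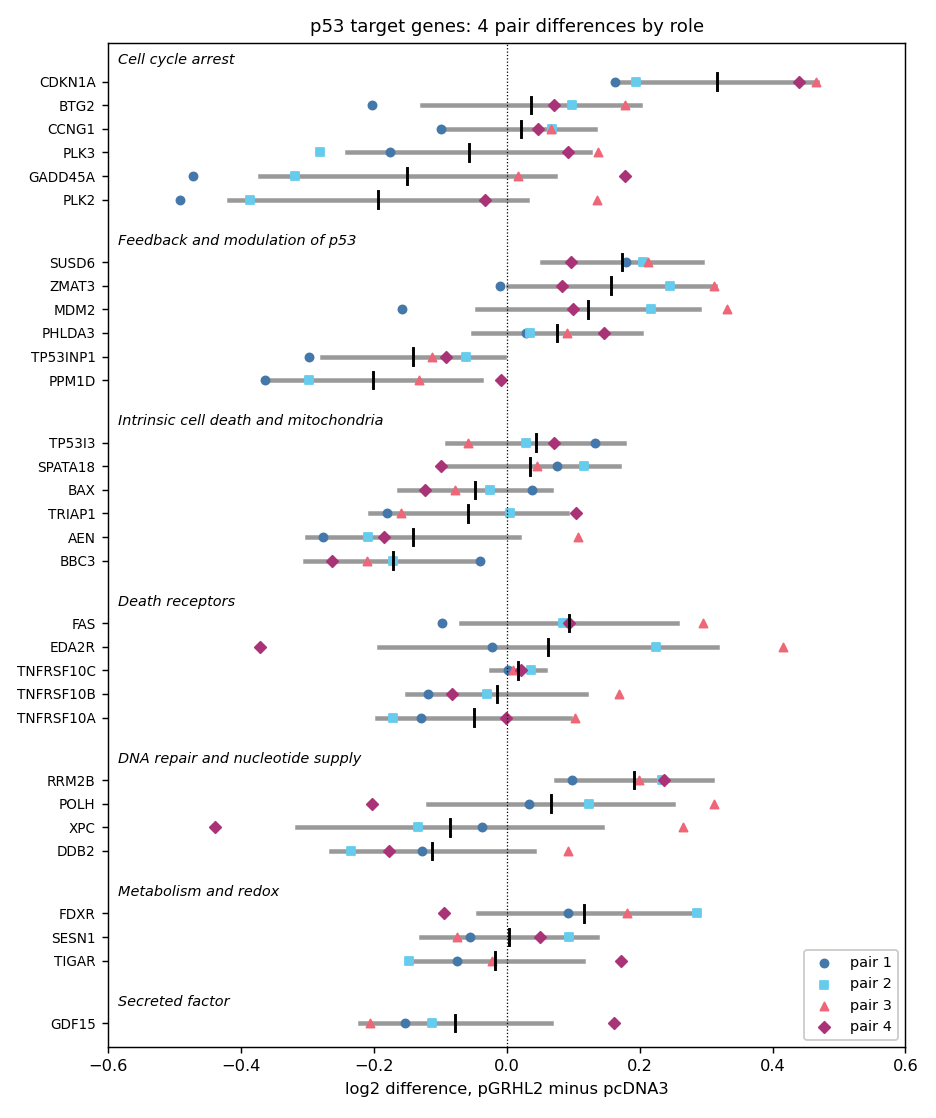
Log2 difference (pGRHL2 minus pcDNA3) of each p53 target gene in each of the 4 pairs (colored symbols), with the mean as a black bar and the 95% interval from limma as a gray band, grouped by role. CDKN1A lies to the right of 0 in every pair (0.16 to 0.47) and PPM1D to the left (-0.36 to -0.01), whereas most genes have pairs on both sides.

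The DNA around the start sites of these genes was searched for the element that p53 binds, in windows of 2500 bases each side of the canonical start (hg38, GENCODE 44). The p53 response element is a pair of decamers, each with a core of C, 2 bases that are A or T, and G, with purines before and pyrimidines after it, and the cores were held fixed. As a palindromic motif it covers both strands. Only decamers directly next to each other were searched, so a window without a match can still hold an element with bases between its decamers. A full match was present in 2 of 31 member windows (6.45%) and in 17 of 17537 windows over all genes (0.0969%). With up to 1 mismatch these were 5 members (16.1%) and 0.416% of windows, and with up to 2 mismatches, a limit set after the CDKN1A site was seen to need it, 13 members (41.9%) and 2.37% of windows. The members were listed as p53 targets, so these shares describe the list, and a match is a run of letters and not a measured binding site. The matches of CDKN1A and PLK2, the arrest genes with the largest differences, and the closest matches among the other arrest and feedback genes are printed on the strand of the gene, with the matched element in capitals.
CDKN1A, chr6:36676439-36676478, at -2265 from the start, 2 mismatches: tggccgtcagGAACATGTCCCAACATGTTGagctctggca
PLK2, chr5:58462264-58462303, at -2207, minus strand, 0 mismatches: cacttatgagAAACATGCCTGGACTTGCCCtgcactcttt
ZMAT3, chr3:179070178-179070217, at 1602, minus strand, 0 mismatches: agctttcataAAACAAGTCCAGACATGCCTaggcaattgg
GADD45A, chr1:67686765-67686804, at 1574, 1 mismatch: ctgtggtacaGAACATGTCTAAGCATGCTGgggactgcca
CCNG1, chr5:163437916-163437955, at 331, 1 mismatch: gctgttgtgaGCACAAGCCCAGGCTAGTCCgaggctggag

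The CDKN1A and PLK2 matches lie upstream of the canonical start, the former overlapping the first bases of an alternative CDKN1A exon, and the other 3 lie inside their genes outside any annotated exon. PLK2 and ZMAT3 both hold a full match and had differences of opposite sign, -0.19 and 0.16, and neither was called. GRHL factors bind the palindrome AACCGGTT, which was searched in the same windows without mismatches. It was present in 1 member, PPM1D (3.23%), and in 250 of 17537 windows (1.43%). PPM1D was not called, and binding of GRHL2 at this site was not tested here. The site is shown because PPM1D had the largest lower difference of the list, with the palindrome in capitals.
PPM1D, chr17:60601622-60601649, at 1439 from the start, inside the gene: gatagttcccAACCGGTTgttcctagtt

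Among the 6 genes of cell cycle arrest, 0 were called and 3 had a log2 FC above 0. CDKN1A encodes p21, which inhibits cyclin-dependent kinases and is the main arm of the p53-dependent arrest. Its values were 11.18, 11.16, 11.03 and 11.04 in the pcDNA3 libraries and 11.34, 11.36, 11.49 and 11.48 in the pGRHL2 libraries. Every pGRHL2 library was above every pcDNA3 library, and pairs 3 and 4 differed by more (0.47 and 0.44) than pairs 1 and 2 (0.16 and 0.19). The log2 FC was 0.32 ± 0.16 (SD of 4 pairs), an increase of 24.5% with a 95% interval of 12.1% to 38.2%. This absolute log2 FC exceeded that of 99.1% of all genes, although by unadjusted limma p (0.00116) 396 genes ranked before it. The 99.1% counts weak genes too, whose differences are compressed. The call depends on the setting, since the adjusted p was under 0.05 in 5 of 13 alternatives (0.0035 without the block, 0.0422 to 0.0486 in 4 blocked fits) and between 0.107 and 0.151 when 1 pair was left out. Flipping the signs of its 4 pair differences in an exact permutation test gave a two-sided p of 0.125, and 4 pairs cannot give a smaller one.

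PLK2, a stress-responsive polo-like kinase, had the largest lower difference among the arrest genes. Its values were 11.63, 11.58, 11.31 and 11.40 with pcDNA3 and 11.14, 11.19, 11.45 and 11.37 with pGRHL2. The groups overlapped, because the lower values with pGRHL2 came from pairs 1 and 2 (-0.49 and -0.39), whereas pair 3 was higher (0.14) and pair 4 near 0 (-0.03). The log2 FC of -0.19 ± 0.29 (SD of 4 pairs, adjusted p = 0.390) was therefore smaller than the spread between pairs.

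GADD45A, which takes part in growth arrest and DNA repair, divided the pairs in the same way, with differences of -0.47 and -0.32 in pairs 1 and 2 and 0.02 and 0.18 in pairs 3 and 4. PLK3, another polo-like kinase, was also lower in pairs 1 and 2 and higher in pairs 3 and 4, and these were the only 2 members of the 31 with that pattern. BTG2, an antiproliferative protein that promotes mRNA deadenylation, had a log2 FC of 0.04 ± 0.17, and CCNG1, a cyclin that recruits protein phosphatase 2A to MDM2, 0.02 ± 0.08 (SD of 4 pairs each). CCNG1 was among the most strongly expressed members, at a mean of 11.91, and its interval ran from -0.09 to 0.13.

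**Figure D2:**
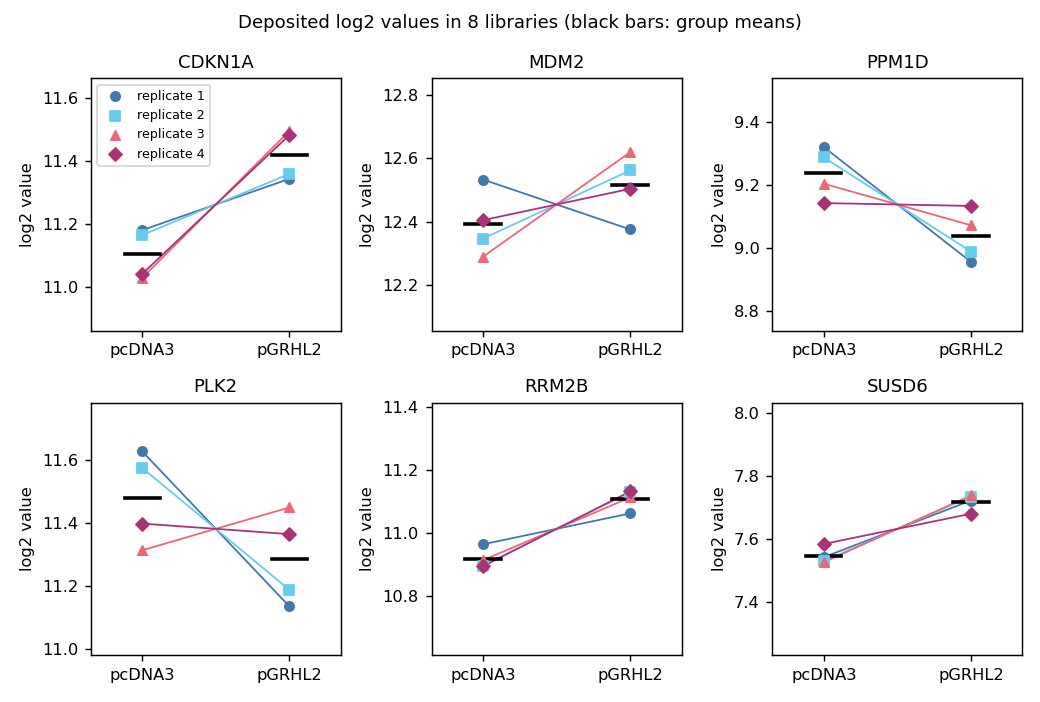
Deposited log2 values of 6 p53 target genes in the 8 libraries, with lines joining libraries of the same replicate number and black bars for group means. CDKN1A, RRM2B and SUSD6 are higher with pGRHL2 in all 4 pairs, PPM1D is lower in all 4, and the lines of MDM2 and PLK2 run both ways.

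The feedback genes were mixed. MDM2, the ubiquitin ligase that degrades p53, was the most strongly expressed member on the per-length scale of the table, at a mean of 12.45. Its values were 12.53, 12.35, 12.29 and 12.40 with pcDNA3 and 12.37, 12.56, 12.62 and 12.50 with pGRHL2. The groups overlapped, since pair 1 was lower with pGRHL2 (-0.16) and the other 3 pairs were higher (0.10 to 0.33). The log2 FC was 0.12 ± 0.21 (SD of 4 pairs) with a 95% interval of -0.05 to 0.29 and an adjusted p of 0.477. Of its annotated exon bases 14.7% also belong to other genes such as CPM, and reads there cannot be assigned by strand.

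PPM1D encodes the phosphatase WIP1, which dephosphorylates p53 and the damage kinases and so ends the response. Its values were 9.32, 9.29, 9.20 and 9.14 with pcDNA3 and 8.96, 8.99, 9.07 and 9.13 with pGRHL2. All pGRHL2 libraries were below all pcDNA3 libraries, but the difference was -0.36 in pair 1 and -0.01 in pair 4. The log2 FC was -0.20 ± 0.16 (SD of 4 pairs), with an interval of -0.36 to -0.04 and an adjusted p of 0.210.

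SUSD6, a membrane protein induced by p53, was given in full after its values were seen because its pairs were close to each other. It lay between 7.53 and 7.59 with pcDNA3 and between 7.68 and 7.74 with pGRHL2, and pair 4 had the smallest difference (0.10, against 0.18 to 0.21). The log2 FC was 0.17 ± 0.05 (SD of 4 pairs), with an interval of 0.05 to 0.29 and an adjusted p of 0.146. ZMAT3, an RNA-binding zinc finger protein, had an unadjusted p of 0.0487 and a log2 FC of 0.16 ± 0.15 with 3 of 4 pairs higher. PHLDA3, an inhibitor of AKT, was higher in 4 of 4 pairs by only 0.08 ± 0.05. TP53INP1, which takes part in autophagy and p53-dependent death, was lower in 4 of 4 pairs by -0.14 ± 0.11 (adjusted p = 0.296).

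The 6 genes of intrinsic cell death and mitochondria had 2 log2 FC above 0 and 4 below, and none was called by limma (1 lower at an unadjusted p under 0.05). BBC3 encodes PUMA, a BH3-only protein that triggers the mitochondrial pathway. It lay between 7.90 and 8.01 with pcDNA3 and between 7.74 and 7.86 with pGRHL2, without overlap, and was singled out after its values were seen. The log2 FC was -0.17 ± 0.09 (SD of 4 pairs), with an interval of -0.30 to -0.04 and an adjusted p of 0.192. BAX, the pore-forming protein that PUMA helps to activate, was expressed more strongly (mean 11.43) and had a log2 FC of -0.05 ± 0.07, with 3 of 4 pairs lower. AEN, an apoptosis-enhancing nuclease, had -0.14 ± 0.17 with only pair 3 higher. TP53I3, a quinone oxidoreductase, SPATA18, which acts in mitochondrial quality control, and TRIAP1, a mitochondrial inhibitor of apoptosis, had values of 0.04, 0.03 and -0.06.

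None of the 5 death receptors was called or had an unadjusted p under 0.05 by limma. FAS, the receptor of FAS ligand, had a log2 FC of 0.09 ± 0.16 (SD of 4 pairs), and the TRAIL receptors TNFRSF10A and TNFRSF10B had -0.05 ± 0.12 and -0.02 ± 0.13. All 5 receptors were higher in pair 3, and 1 of 5 was higher in pair 1. EDA2R, the receptor of ectodysplasin A2, had the widest spread of all members, from -0.37 in pair 4 to 0.42 in pair 3. TNFRSF10C, a decoy TRAIL receptor without a death domain, had low values (mean 2.13). Its difference of 0.017 ± 0.015 in 4 of 4 pairs is on a scale where the rlog transform compresses weak genes. Of its annotated exon bases 33% also belong to other genes, where reads cannot be assigned by strand. The shared part was 19.4% for TIGAR, 18.4% for PHLDA3 and 16.7% for TNFRSF10A.

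The DNA repair and nucleotide supply genes held the second largest higher difference. RRM2B encodes p53R2, the damage-inducible small subunit of ribonucleotide reductase. It lay between 10.89 and 10.96 with pcDNA3 and between 11.06 and 11.13 with pGRHL2 (also given in full after its values were seen). The groups did not overlap, and the pair differences ran from 0.10 to 0.24. The log2 FC was 0.19 ± 0.06 (SD of 4 pairs), 1.14-fold, with an interval of 0.07 to 0.31 and an adjusted p of 0.103. XPC and DDB2, which recognize lesions for nucleotide excision repair, had -0.09 ± 0.29 and -0.11 ± 0.14, both with only pair 3 higher. POLH, the translesion polymerase eta, had 0.07 ± 0.21. XPC ranged from -0.44 in pair 4 to 0.27 in pair 3, and 24.6% of its exon bases are shared with other annotated genes, XPC-AS1 among them.

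Among the metabolic members, FDXR, a mitochondrial ferredoxin reductase, had a log2 FC of 0.12 ± 0.16 with 3 of 4 pairs higher. SESN1, a sestrin that restrains mTORC1, and TIGAR, a fructose bisphosphatase that lowers glycolysis, were at 0.00 ± 0.08 and -0.02 ± 0.14 (SD of 4 pairs each). GDF15, a secreted stress cytokine and the second most strongly expressed member (mean 12.37), had -0.08 ± 0.16, lower in 3 of 4 pairs, with an interval of -0.22 to 0.07.

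**Figure D3:**
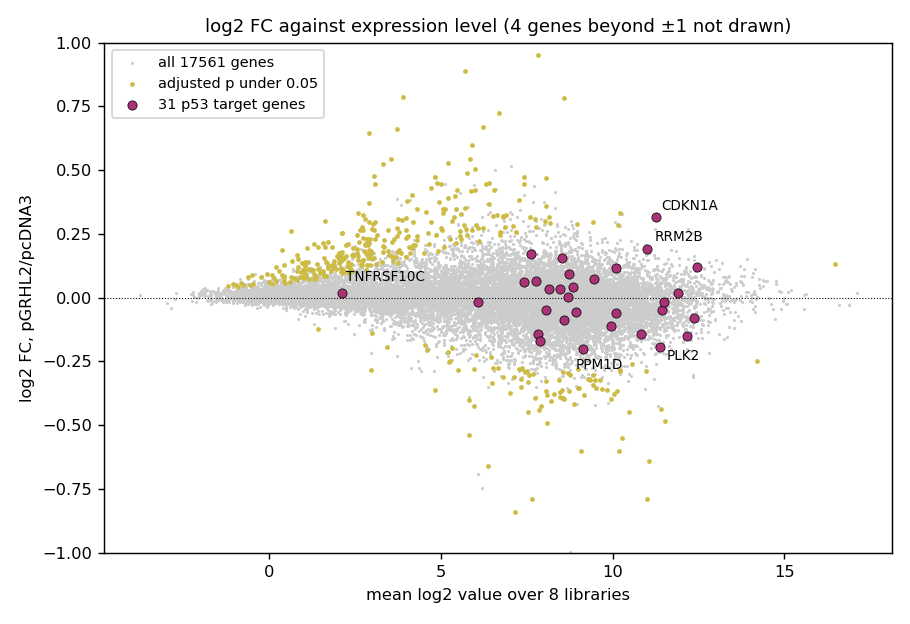
Log2 FC (pGRHL2/pcDNA3) against the mean log2 value over the 8 libraries for all genes (gray), genes called by limma (yellow) and the 31 p53 target genes (purple), with 4 genes beyond 1 in either direction not drawn. The members lie in the gray band between -0.20 and 0.32, and CDKN1A is the farthest of them from 0.

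The SD of the 4 pair differences exceeded the absolute log2 FC in 22 of 31 members. The median difference over the 31 members was -0.076 in pair 1, 0.029 in pair 2, 0.103 in pair 3 and 0.047 in pair 4. The median over all genes stayed between 0.00078 and 0.0059, but a median over few genes scatters more. Some other short lists described below also ran both ways. The 22 p53 regulators ran from -0.108 to 0.064, and the 12 genes repressed through p21 and the DREAM complex from -0.132 to 0.066. The 11 stress and growth factor inducible genes ran from -0.278 to 0.107. In contrast, the 25 other p53 targets stayed between 0.022 and 0.033 in all 4 pairs. The swing between pairs was thus shared by some of these lists but not by the other p53 targets. In pair 1, 10 of 31 members were higher with pGRHL2, and in pair 3 it was 22 of 31. The roles did not all follow this. Of the 6 arrest genes 1 was higher in pair 1 and all 6 in pair 3, and of the 6 feedback genes 2 and 4 were. Of the 4 repair genes 2 were higher in pair 1 and all 4 in pair 3. Of the 6 cell death genes, however, 3 were higher in pair 1 and 2 in pair 3, and of the 3 metabolic genes 1 was higher in each. GRHL2 itself was higher by between 8.97 and 10.26 in every pair. Of the pairs, pair 2 stood apart in the 9 liver markers, all of which were higher there with a median difference of 0.318, against -0.119 to -0.028 in the other pairs. Without pair 2 the median over the members was 0.0069 and the log2 FC of CDKN1A 0.36 (adjusted p = 0.107). The labels give the replicate number and no other batch, so what set these pairs apart was not tested.

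The rest of the pathway was examined through 70 further genes, out of 72 listed (TP63 and IER3 were not in the table). limma called 0 of them higher and 3 lower, beside the 1.69% and 0.501% of all genes, with 3 higher and 9 lower at an unadjusted p under 0.05, beside 9.17% and 6.78% of all genes. Among the 22 regulators of p53, RCHY1, which encodes the p53 ubiquitin ligase PIRH2, fell by 0.30 ± 0.07 (adjusted p = 0.0344), lower in 4 of 4 pairs. Its values were 9.53 to 9.60 with pcDNA3 and 9.23 to 9.31 with pGRHL2, without overlap. SIRT1, a deacetylase that acts on p53 among many proteins, fell by 0.32 ± 0.14 (adjusted p = 0.0477), from 9.57 to 9.72 with pcDNA3 to 9.27 to 9.42 with pGRHL2. Both calls were lost under quantile normalization (adjusted p of 0.0595 for RCHY1 and 0.0763 for SIRT1), and both were also lost when a trend on level was removed (0.0558 and 0.0727). Leaving out a pair ended the RCHY1 call in each of the 4 cases (adjusted p of 0.0539 to 0.208) and the SIRT1 call without replicate 1, 2 or 3 (0.124 to 0.244).

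MDM4, the partner of MDM2 that inhibits p53, had -0.05 ± 0.17 (SD of 4 pairs). TP53BP2, which encodes a stimulator of apoptotic p53 targets, had -0.31 ± 0.24 (adjusted p = 0.113), and the acetyltransferases EP300 and CREBBP had -0.23 ± 0.25 and -0.19 ± 0.22. TP53BP1, a damage checkpoint protein, had -0.16 ± 0.23, and none of these passed the test.

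The 25 other p53 targets had a median log2 FC of 0.026, with 17 above 0 and 8 below. Above 0 were 9042 of all 17561 genes, and 4907 of the 10858 genes with a mean value of at least 5. None of the 25 was called by limma (2 higher and 0 lower at an unadjusted p under 0.05). The largest values were 0.21 ± 0.10 for STEAP3, a ferrireductase, 0.21 ± 0.16 for TRIM22, -0.18 ± 0.21 for LIF, a cytokine, and 0.15 ± 0.20 for CES2, a carboxylesterase. The 12 genes that p53 represses through p21 and the DREAM complex are cell cycle genes. Of them, 10 had a log2 FC below 0, and the median was -0.053. Of all genes with a mean value of at least 5, 5951 of 10858 were below 0, with a median of -0.010. None of the 12 was called (1 lower at an unadjusted p under 0.05), and repression through p21 was not tested. CDC20, an activator of the anaphase-promoting complex, had -0.138 ± 0.0082 (adjusted p = 0.192), lower in 4 of 4 pairs, whereas CDK1 had 0.14 ± 0.24, PLK1 -0.08 and AURKA -0.07. Of these 12 genes, 3 were higher in pair 1, 10 in pair 2, 0 in pair 3 and 2 in pair 4.

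Of 11 stress and growth factor inducible genes, FOS, a component of AP-1, fell by 0.44 ± 0.25 (adjusted p = 0.0452), lower in 4 of 4 pairs. That call was also lost under quantile normalization (0.0719), with the trend on level removed (0.0649), and without replicate 1, 2 or 3 (0.124 to 0.190). JUN, the partner of FOS, had -0.30 (adjusted p = 0.0783) and PPP1R15A, which encodes the phosphatase subunit GADD34, -0.42 (adjusted p = 0.109). IER2 and ATF3 had -0.14 and -0.10.

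**Figure D4:**
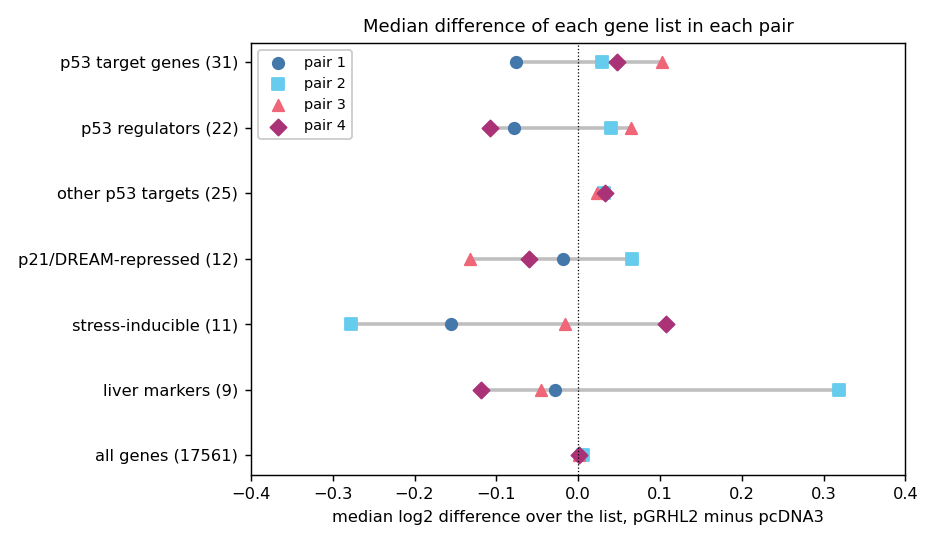
Median log2 difference (pGRHL2 minus pcDNA3) of each gene list in each of the 4 pairs, with the number of genes in parentheses. The p53 target genes run from -0.076 in pair 1 to 0.103 in pair 3. Some other short lists also spread, such as the p21/DREAM-repressed genes from -0.132 in pair 3 to 0.066 in pair 2. The other p53 targets stay between 0.022 and 0.033. The median over all genes lies near 0 in every pair.

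The deposited values carry no read counts, so the depth behind each value is unknown and no counting interval can be given. A filter on low reads preceded deposition, and the values were compressed toward each other for weak genes, which bears on TNFRSF10C more than on the 30 members with a mean of at least 5.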

How the data were processed

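RNA from HepG2 cells transfected with pGRHL2 or pcDNA3 was profiled as mRNA libraries, 4 per plasmid, grouped by the plasmid named in the labels. Per the labels and the study's methods, reads were mapped with HISAT2 2.2.1 (hg38) and exonic reads were counted with HTSeq 0.9.1 without strand. The authors removed genes with few reads and applied the rlog transform of DESeq2 1.40.2 with an adjustment for transcript length. These versions are from the submitters' processing notes, and the study's methods give other versions of HISAT2 and DESeq2. The deposited values are log2 expression (-3.76 to 17.3, with 3.71% below 0). Same-numbered libraries shared 1 mean in all 17561 genes, their deviations correlate at -1, and no source used here describes that step. The pairing therefore comes from this property of the values.

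Log2 FC were fitted to all 17561 genes with limma 3.58.1 (R 4.3.3; eBayes with trend) with plasmid and replicate number as terms, which leaves 3 residual degrees of freedom per gene, and Benjamini-Hochberg adjustment was applied over the whole table. The script was tested on simulated data. The planned count test was not possible on log2 values, and the depth of the libraries is unknown. The members, roles and other gene lists were chosen with earlier results of these data known. Full values were given for CDKN1A, MDM2, any called member and the 3 uncalled members with the largest absolute log2 FC (CDKN1A, PPM1D and PLK2), and of the other lists each called gene and up to 4 uncalled genes with the largest absolute log2 FC were named, with MDM4. One further gene that this rule names is not reported here. Alternatives were limma with no block, arrayWeights, robust eBayes, equal library medians, quantile normalization, genes with a mean value of at least 5 alone, a loess trend on level (span 0.5) taken out of each pair, eBayes without trend, an adjusted p under 0.01 and leaving out each pair. Motifs were searched around canonical starts of GENCODE 44, for 99.9% of symbols.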

Additional observations from a re-analysis of the deposited data

Results flagged for a closer look

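Among 53 results examined for a pair far from the other 3, 1 was found, where about 1 in 20 is given by chance. CCNG1, which encodes cyclin G1, differed by -0.0994 in pair 1 and by 0.047 to 0.0684 in the other pairs. Over the 31 p53 targets pair 1 also had the lowest median difference (-0.076), and the cause was not tested.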

How the results depend on the processing

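Without the replicate block, which counts mirrored values as independent, limma called 3 members higher and 3 lower (BBC3, CDKN1A, PPM1D, RRM2B, SUSD6 and TP53INP1), 4 other pathway genes higher and 7 lower, and 1821 and 1427 genes of the table, so that 18.5% of all genes were called and 56.1% of calls were higher, in place of 77.1%. With the block, CDKN1A was the 1 member called under robust eBayes, arrayWeights, quantile normalization and a mean value of at least 5. Genes of the table called higher were 503 with arrayWeights, 184 after quantile normalization, 63 at a mean of at least 5 (43.8% of calls), 196 with the trend on level removed, 4 with eBayes without trend (66.7%), 77 at an adjusted p under 0.01 (88.5%) and 79 to 156 with a pair left out. Those called lower were 221 with arrayWeights, 57 after quantile normalization, 2 without the eBayes trend, 10 at 0.01 and 8 to 68 with a pair left out. The share of higher calls was 90.8% without replicate 1 and 91.3% without replicate 2. Other pathway genes called lower were 6 with arrayWeights, 0 after quantile normalization, with the trend on level removed, without the eBayes trend and at 0.01, and 0 to 2 with a pair left out. The median of the members stayed between -0.017 and 0.019. Signs turned for genes that were not called. They were BTG2 (-0.011), CCNG1 (-0.0018) and SESN1 (-0.0032) with arrayWeights, SESN1 (-0.0013) with equal medians, TNFRSF10B (0.010) and TNFRSF10C (-0.0056) after quantile normalization and TNFRSF10B (0.0028) with the trend on level removed. With a pair left out the log2 FC ran from -0.012 to 0.12 for BTG2, -0.12 to 0.018 for PLK3, -0.077 to 0.019 for TNFRSF10B, -0.056 to 0.21 for EDA2R, -0.20 to 0.031 for XPC, -0.015 to 0.16 for POLH, -0.027 to 0.029 for SESN1, -0.082 to 0.025 for TIGAR, -0.098 to 0.025 for MDM4 and -0.19 to 0.013 for ATF3. Fewer genes tested or fewer pairs changed some of these counts by construction, and the cause of the others was not tested.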
